A study of Mus musculus with 59 samples.

Results

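The genes described here are 5 caspases, Casp2, Casp6, Casp8, Casp9 and Casp14, and Apaf1, the adaptor that activates Casp9. The 6 genes were found by symbol among 22134 genes with a listed transcript in the count files of 14 single mouse epiblasts at E6.25, and each was represented by its transcript with the highest mean raw count. The epiblast is the embryonic tissue of the early postimplantation conceptus, dissected here just before gastrulation. Knockouts of Ehmt2, which encodes the H3K9 methyltransferase G9a, were compared with controls in one cross, and knockouts of Ezh2, which encodes the H3K27 methyltransferase EZH2, in another.

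The Ehmt2 cross held 4 control epiblasts, labelled G9a+/+, and 4 G9a-/- epiblasts, called Ehmt2-/- here. They came from Ehmt2+/- intercrosses that used a published conditional allele in a line crossed to the ΔPE-Pou5f1-EGFP reporter. The Ezh2 cross held 3 controls, labelled Ezh+/+, and 3 Ezh-/- epiblasts from Ezh2+/- intercrosses. The source data legends of the study count both +/+ and +/- epiblasts as controls in each cross, so that a control here may be heterozygous. The epiblasts came from 4 and 3 litters, and which control shared a litter with which knockout is not given in the sources used here. All epiblasts were on a mixed background, the loss of each gene affected every tissue, and each replicate was 1 embryo, so that p-values measure the spread between embryos. The mRNA of a whole dissected epiblast was measured, and more cells with a transcript cannot be told apart from more transcript in each cell.

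Caspases are cysteine proteases that are made as inactive precursors. In the intrinsic pathway, cytochrome c from mitochondria binds Apaf1, which assembles into the apoptosome and activates Casp9. In the extrinsic pathway, ligand-bound death receptors recruit Fadd and Casp8. Both routes lead to the executioner caspases, to which Casp6 is counted. Casp2 is an initiator activated on the PIDDosome, and Casp14 is an atypical member, best known from the cornifying epidermis, where it acts in barrier formation rather than in cell death.

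The counts of 1 transcript per gene summed to between 13171239 and 28434545 in the Ehmt2 cross and between 12495094 and 15158657 in the Ezh2 cross. Values are given as CPM, the count relative to the library size after TMM scaling, and a gene was called changed at an adjusted p under 0.05 over all genes tested. The targeted genes matched the labels. Ehmt2 was between 25.8 and 78.5 CPM in its controls and between 8.07 and 21.7 CPM in Ehmt2-/- epiblasts, with a log2 fold change of -1.65 ± 0.22 (SE) and an adjusted p of 0.00354 (edgeR). Ezh2 was between 129 and 269 CPM in its controls and between 28.1 and 39.5 CPM in Ezh2-/- epiblasts, with a log2 fold change of -2.55 and an adjusted p of 0.0789 (edgeR). The 7 epiblast markers, such as Pou5f1 and Dnmt3b, were detected throughout. Their sum, most of it Dnmt3b, was 5993 to 6864 CPM over the Ehmt2 controls and 3489 to 4923 CPM over the Ehmt2-/- epiblasts, every knockout below every control. The median log2 fold change was -0.46, in a range from -0.72 for Fgf5 to 0.26 for Sox2. Of the 7 markers, 1 was called lower, against 0.385% of all genes tested. In the Ezh2 cross the sums were 5701 to 6205 CPM over the controls and 4522 to 5969 CPM over the knockouts, which overlapped. Replicate 4 of the Ehmt2 cross stood apart from replicates 1 to 3 in depth and in its counts over the genes tested. In each genotype it had the lowest mean log2 level of extraembryonic ectoderm markers, described beside Casp14. The source data of the study compare knockout 4 with control 4 and knockouts 1 to 3 with controls 1 to 3, so the fit had a term for replicate 4.

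Casp14 was listed with almost no counts in the controls and with counts in every Ehmt2-/- epiblast. Its counts were 0, 0, 3 and 0 in the 4 controls and 9, 55, 45 and 46 in the 4 knockouts, in replicate order. On the CPM scale this was at most 0.20 in controls and 0.632, 3.96, 2.88 and 1.71 in the knockouts. Every knockout was above every control, and knockout 1 was the lowest of the knockouts. Such a separation upwards was seen for 3.19% of the 13749 genes tested. Casp14 passed the filter on low counts only through the knockouts. Its place among the genes tested therefore depended on the group in which it was high. Casp14 rose with a log2 fold change of 5.55 ± 1.17 (SE) and an adjusted p of 0.0418 (edgeR's quasi-likelihood test). The two-sided exact permutation test on CPM gave p = 0.0286, the smallest that 4 against 4 epiblasts allow. That test shuffled all epiblasts of the cross freely and did not set replicate 4 apart. Casp14 was the only one of the 6 genes called higher, and 0.96% of all genes tested were called higher. None of the 6 was called lower, against 0.385% of all genes tested, and none had every knockout below every control, against 3.02%.

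The size of the Casp14 change rests on few control counts. The 155 counts of the knockouts and the 3 of the controls gave a ratio of 53.3 per scaled library, with an exact 95% interval of 17.9 to 261 that covers counting error only. The call was close to the threshold. It was lost when control replicate 1 (adjusted p = 0.122), 2 (0.14), 3 (0.0789) or 4 (0.0633) was left out, and when knockout replicate 2 (0.132) or 3 (0.0953) was left out, all from edgeR. It held without knockout replicate 1 (adjusted p = 0.0396, edgeR), and without knockout replicate 4 Casp14 no longer passed the filter on low counts. Without the term for replicate 4 the adjusted p was 0.128, and with the replicate number as a block in its place it was 0.077 (both edgeR).

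**Figure D1:**
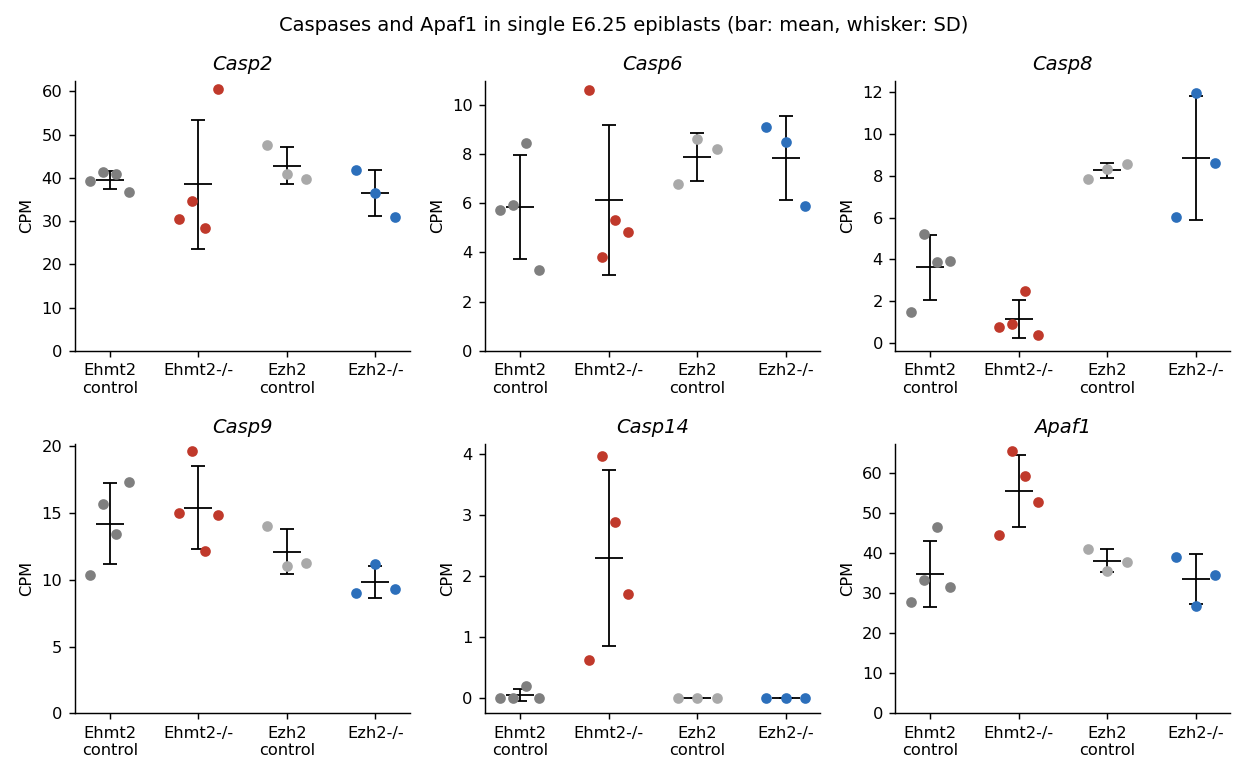
CPM (y axis) of each gene in each epiblast (points), by group (x axis), with the group mean as a bar and the SD as whiskers. The 4 Ehmt2-/- epiblasts are the only ones above the single control with Casp14 counts, at 0.20 CPM, 3 of 4 Ehmt2-/- epiblasts lie below every Ehmt2 control for Casp8 and 3 of 4 above every control for Apaf1.

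Casp14 lies on the minus strand of chromosome 10 at chr10:78711991-78718294 (GRCm38), where a single isoform was listed (ENSMUST00000005488, protein coding, 7 exons). Apaf1 lies on the same chromosome and strand, at chr10:90989318-91082770 for its counted transcript of 27 exons (ENSMUST00000020157). The promoters of these 2 genes, the one called and the one nearest to being called with higher levels, are shown from 250 bases before to 50 bases after the RefSeq start (GRCm38.p6, minus strand, written 5′ to 3′) with each CG dinucleotide in capitals, since CG density is a feature by which promoters are commonly classed.
Casp14, chr10:78718244-78718543: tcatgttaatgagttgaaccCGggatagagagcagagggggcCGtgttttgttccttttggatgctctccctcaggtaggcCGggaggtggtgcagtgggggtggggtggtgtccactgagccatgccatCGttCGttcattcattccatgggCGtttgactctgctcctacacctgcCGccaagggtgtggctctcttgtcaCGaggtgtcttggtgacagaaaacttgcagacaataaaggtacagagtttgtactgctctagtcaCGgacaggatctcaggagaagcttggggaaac
Apaf1, chr10:91082694-91082993: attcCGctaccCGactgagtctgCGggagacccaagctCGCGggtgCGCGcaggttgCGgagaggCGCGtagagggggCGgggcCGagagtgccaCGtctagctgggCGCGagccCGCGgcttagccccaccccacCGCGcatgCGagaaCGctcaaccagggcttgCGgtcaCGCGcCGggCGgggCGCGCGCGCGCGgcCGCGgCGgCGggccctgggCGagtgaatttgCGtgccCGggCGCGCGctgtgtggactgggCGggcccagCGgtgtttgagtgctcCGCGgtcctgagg
The Casp14 promoter held 9 CG dinucleotides at a GC content of 53.7%, and the Apaf1 promoter held 46 at 74.7%. Of 32851 promoters of the same length, 54.2% held fewer CG than that of Casp14 and 98.4% held fewer than that of Apaf1. The promoters of Casp2, Casp6 and Casp9 held 26, 16 and 28. The RefSeq start of Casp8, with 5 CG, lies 7128 bases from the start of the counted transcript, so this window is not at that start. The letters GGGCGG, searched on both strands, were in the promoters of Apaf1, Casp2, Casp6 and Casp9 and not in those of Casp14 and Casp8, and 35.7% of all promoters held them. TATAAA was in none of the 6, and 13.6% of all promoters held it on either strand.

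Markers of the extraembryonic ectoderm, the tissue that borders the epiblast, were higher in some of the same embryos. Their mean level was also higher in Ezh2-/- epiblasts, as described with that cross. Of the 9 markers tested in the Ehmt2 cross, 5 were called higher, against 0.96% of all genes tested, among them Elf5 and Esrrb. The 9 summed to values from 56.0 to 321 CPM in controls and from 49.1 to 821 CPM in knockouts. Eomes made up most of this sum in every control. The mean log2(CPM + 0.5) of the 9 was 1.18, 2.01, 1.85 and 0.466 in controls 1 to 4. In knockouts 1 to 4 it was 5.69, 4.17, 4.32 and 0.494. Elf5 was 150, 14.6, 30.2 and 0 CPM in knockouts 1 to 4 and at most 1.33 CPM in controls. Casp14 was 0.632 CPM in knockout 1, which had the highest marker level. In knockout 4, where 5 of the 9 markers had no count, Elf5, Cdx2, Tfap2c, Hand1 and Sox21 among them, Casp14 was 1.71 CPM. The sum of the 7 epiblast markers, most of it Dnmt3b, was also lower in every Ehmt2-/- epiblast than in any control. Single genes differed: the groups overlapped for Pou5f1, Sox2, Fgf5, Utf1 and Nanog and not for Otx2 and Dnmt3b. The part of either marker group in the Casp14 result was not tested. Of the visceral endoderm markers and of the decidua and blood markers, none was called in either cross. With the mean extraembryonic ectoderm marker level as a covariate the log2 fold change of Casp14 was 8.67 with an adjusted p of 0.0787 (edgeR).

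**Figure D2:**
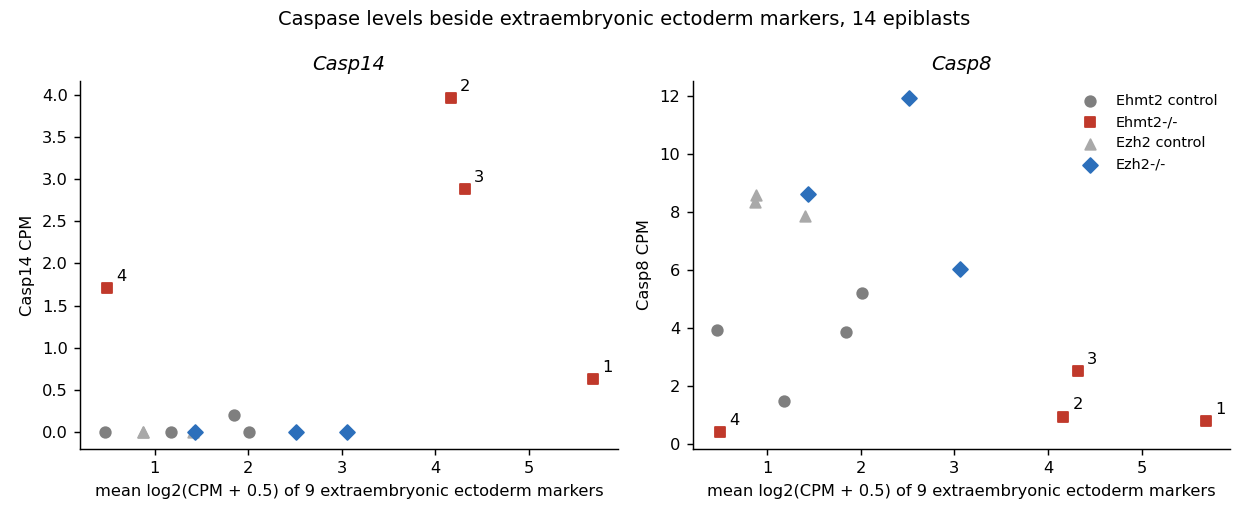
CPM of Casp14 (left) and Casp8 (right) on the y axes against the mean log2(CPM + 0.5) of the 9 extraembryonic ectoderm markers on the x axes, with 1 point per epiblast and the Ehmt2-/- epiblasts numbered by replicate. Knockout 4 has a mean marker level as low as the controls, though Esrrb and Bmp4 are above every Ehmt2 control there. It has 1.71 CPM of Casp14 and 0.408 CPM of Casp8.

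Keratinocyte genes are those of the cell type in which Casp14 is best known. Their 8 markers summed to values from 1.79 to 9.25 CPM in controls and from 1.85 to 6.47 CPM in Ehmt2-/- epiblasts. Krt10, a keratin of differentiating epidermis, had counts in all 8 epiblasts, at 4.21, 3.03, 3.33 and 1.56 CPM in the knockouts and 0.739 to 5.43 CPM in the controls, levels like those of Casp14 in the knockouts but with overlapping groups. Krt14 and Krt5, keratins of the basal layer, were at most 0.913 CPM. Of the 9 epidermal genes listed with the cell death genes, 3 passed the filter and none was called. Tgm1, the transglutaminase that cross-links the cornified envelope, was 1.12, 3.03, 0.384 and 1.30 CPM in knockouts 1 to 4 and between 0 and 1.91 CPM in controls.

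Apaf1 had higher values in most Ehmt2-/- epiblasts, short of the threshold. Its CPM was 27.8, 33.4, 46.6 and 31.6 in the 4 controls and 44.7, 65.4, 59.4 and 52.8 in the 4 knockouts, in replicate order. The groups overlapped through control 3 and knockout 1, and the other 3 knockouts were above every control. The means were 34.8 ± 8.19 and 55.6 ± 8.93 CPM (SD, n = 4 each, two-sided exact permutation p = 0.0571). The log2 fold change was 0.68 ± 0.19 (SE), with an adjusted p of 0.127 from edgeR and 0.0213 from DESeq2. Of its 8 listed isoforms 7 had a positive log2 fold change, from -0.05 to 1.18 over all 8, and none was called. How many reads the isoforms share was not measured.

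Casp9 is the protease that the apoptosome activates. It was 10.3, 15.7, 13.4 and 17.3 CPM in controls and 15.0, 19.6, 12.1 and 14.8 CPM in knockouts, and these values intermingled. The log2 fold change was 0.13 ± 0.26 (SE, edgeR adjusted p = 0.876). Its counted transcript (ENSMUST00000030747, chr4:141793612-141815976, plus strand, 9 exons) shares 94 bases with exons of Cela2a and Ctrc on the other strand, and how the counting used strand is not given in the sources used here.

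Casp8, the initiator of the death receptor route, had the lowest mean level in the Ehmt2 cross of the 5 genes with counts in all its epiblasts, and lower values in most knockouts. It was 1.48, 5.22, 3.87 and 3.93 CPM in the 4 controls and 0.772, 0.937, 2.50 and 0.408 CPM in the 4 knockouts, in replicate order. Knockout 3 exceeded control 1, and the other 3 knockouts were below every control. The raw counts behind them were from 24 to 97 in controls and from 11 to 39 in knockouts. The log2 fold change was -1.77 ± 0.69 (SE), which did not pass the threshold (edgeR adjusted p = 0.261, two-sided exact permutation p = 0.0571). Both listed isoforms gave a like value, -1.75 and -1.83, in the fit of all transcripts. Their counts were close in each Ehmt2-cross epiblast and may be largely of the same reads, so these are not separate measurements. The counted transcript of Casp8 (ENSMUST00000027189) spans chr1:58795374-58847503 on the plus strand. Of the knockouts, knockout 4 had the lowest Casp8 and the lowest extraembryonic ectoderm markers. Knockout 1 had the highest markers and the next lowest Casp8, at 0.772 CPM. Control 4, with a mean log2 marker level of 0.466 against 0.494 in knockout 4, had 3.93 CPM of Casp8. Single markers differed between control 4 and knockout 4, with Bmp4 at 2.94 and 9.71 CPM and Eomes at 93.8 and 36.8 CPM. The part of these markers in the Casp8 values was not tested.

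Casp2, the PIDDosome initiator, had the highest mean CPM of the 6 genes in the controls of both crosses, whereas in Ehmt2-/- epiblasts the mean of Apaf1 was higher. Its CPM was 39.3, 41.4, 40.9 and 36.7 in controls and 30.5, 34.7, 28.3 and 60.6 in knockouts. Knockouts 1 to 3 were below every control and knockout 4 was above every control, so that the log2 fold change was -0.10 ± 0.20 (SE, edgeR adjusted p = 0.874). The high value of knockout 4 came with the counted isoform (ENSMUST00000031895, chr6:42264985-42282508, plus strand), which had 1634 counts there and 849 in control 4, while the isoform with the next highest count in knockout 4 (ENSMUST00000139930, a retained intron form) had 171 there and 200 in control 4. All 9 listed isoforms had a negative log2 fold change, between -0.90 and -0.08, and none was called. As for Apaf1, how many reads they share was not measured.

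Casp6, an executioner that cleaves lamins, did not separate the genotypes. It was 5.73, 5.92, 8.47 and 3.28 CPM in controls and 10.6, 3.82, 5.32 and 4.82 CPM in knockouts, of which knockout 1 alone was above every control. The log2 fold change was 0.12 ± 0.41 (SE, edgeR adjusted p = 0.928) for the transcript ENSMUST00000029626 at chr3:129901425-129914103 on the plus strand.

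**Figure D3:**
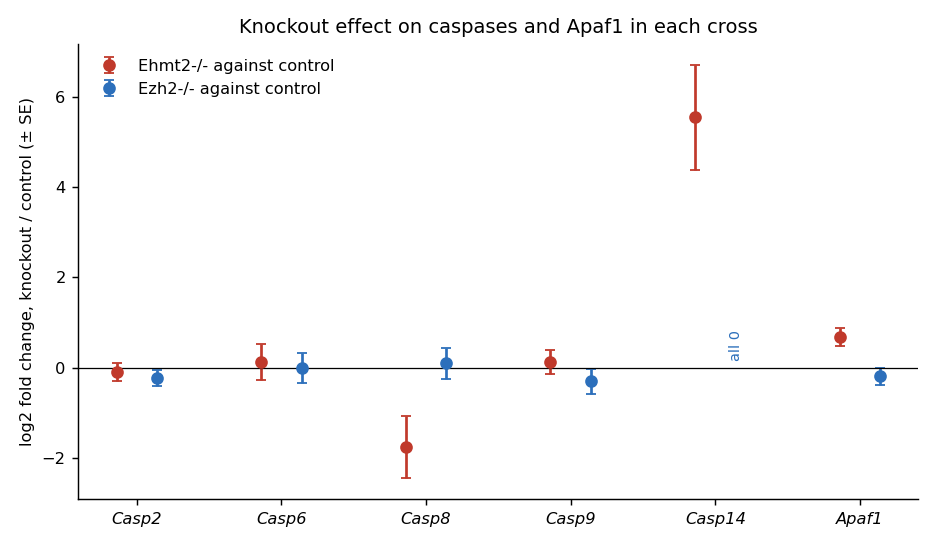
Log2 fold change of knockout over control (y axis, with SE) for the 6 genes (x axis), in the Ehmt2 cross (red) and the Ezh2 cross (blue). Casp14 at 5.55 and Casp8 at -1.77 lie outside the range of the others in the Ehmt2 cross, Casp14 had no counts in the Ezh2 cross, and the blue points lie between -0.31 and 0.09.

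Set per kilobase of transcript, so that genes can be compared, the order of levels in Ehmt2 controls was Casp2 (11.2 ± 0.597 CPM per kb, SD, n = 4), Apaf1 (5.30 ± 1.25), Casp6 (4.02 ± 1.45), Casp9 (3.64 ± 0.775), Casp8 (1.4 ± 0.603) and Casp14 (0.0214 ± 0.0428). The ranges of Apaf1, Casp6 and Casp9 overlapped, whereas Casp2 lay above, Casp8 below and Casp14 below Casp8 in all 4 controls. In Ehmt2-/- epiblasts Casp14 averaged 0.983 ± 0.618 CPM per kb and Casp8 0.446 ± 0.357, with overlapping ranges. The mean of Casp14 was then above that of Casp8, yet it stayed well below Casp2 at 10.9 ± 4.23 and Apaf1 at 8.45 ± 1.36 CPM per kb.

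Casp14 was next set against each other gene within the same epiblast, as the log2 ratio of CPM + 0.5. The ratio to Casp8 lay from -3.52 to -1.98 in controls and from -0.17 to 1.64 in knockouts, a mean difference of 3.55. The ratio to Casp2 moved by 2.29, to Casp6 by 2.16, to Casp9 by 2.07 and to Apaf1 by 1.51. Knockouts and controls did not overlap for 4 of the 5 ratios (two-sided exact permutation p = 0.0286 each, unadjusted over 5 ratios, the smallest possible). The ratio to Casp6 overlapped through knockout 1 (p = 0.0571, exact). Casp14 had no count in controls 1, 2 and 4, so the ratios there were set by the pseudocount and the other gene. The separation therefore largely repeats that of Casp14 itself and is not separate support. These 5 ratios share the Casp14 values and are not independent, and their size depends on the pseudocount, which understates the change of a gene with controls at 0. With 0.1 in place of 0.5 the changes were 3.24 (Apaf1) to 5.63 (Casp8), and with 1 they were 0.87 (Apaf1) to 2.65 (Casp8).

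**Figure D4:**
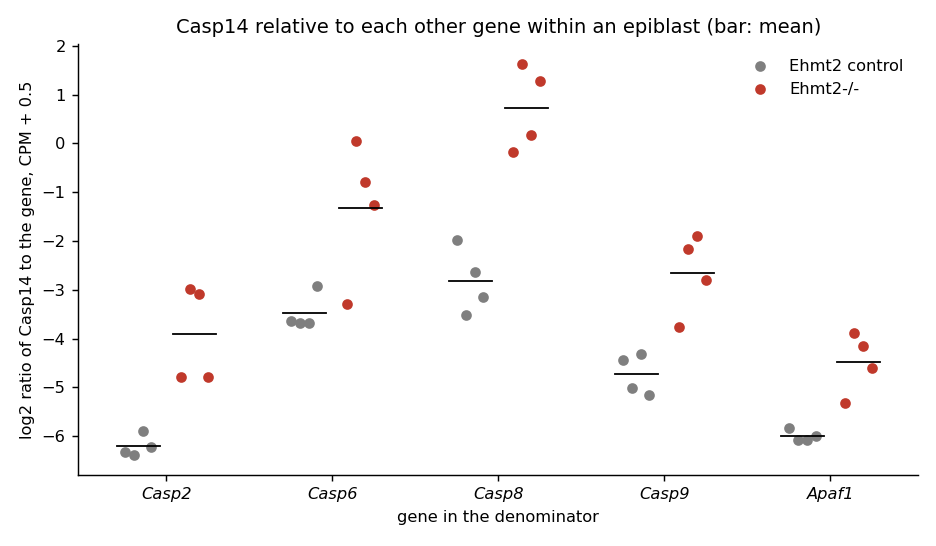
Log2 ratio of Casp14 to each other gene (y axis, CPM + 0.5) in each Ehmt2-cross epiblast (points), by the gene in the denominator (x axis), with group means as bars. The knockouts lie above the controls for Casp2, Casp8, Casp9 and Apaf1, and knockout 1 falls among the controls for Casp6.

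Other genes of the cell death pathway were examined from lists of 29 genes, of which 25 were tested in the Ehmt2 cross. Of these, 1 was called higher and none lower, against 0.96% and 0.385% of all genes tested. The median log2 fold change was 0.09 over the 25 and -0.01 over all genes tested. The called gene was Tnfrsf1a, the receptor for tumour necrosis factor. It was 1.97, 4.89, 3.27 and 1.43 CPM in controls and 17.1, 10.2, 9.48 and 6.26 CPM in knockouts. All knockouts were above every control, as for 3.19% of all genes tested. The log2 fold change of Tnfrsf1a was 1.93 ± 0.40 (SE, edgeR adjusted p = 0.0391). Its order over the knockouts differs from that of Casp14, with knockout 1 the highest, as it was for the extraembryonic ectoderm markers, whose part in the result was not tested.

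Within the death receptor list, Tnfrsf10b, a receptor for the ligand Tnfsf10, was between 13 and 19.1 CPM in controls and 30.2, 37.6, 23.7 and 34.5 CPM in knockouts. Every knockout was again above every control, as for 3.19% of all genes tested, but the adjusted p was 0.062 (edgeR, log2 fold change 0.97 ± 0.23). Fasl, the ligand of Fas, had no count in any control and was 1.4, 1.08, 0.0641 and 1.33 CPM in knockouts 1 to 4. It did not pass the filter on low counts, and its receptor Fas was at or below 0.0667 CPM in all 8 epiblasts. Fadd and Ripk1, the adaptors of the receptors, had log2 fold changes of 0.09 and 0.16, and Cflar, the inhibitor of Casp8 activation, had -0.50 ± 0.27 (edgeR adjusted p = 0.442).

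Pidd1, the scaffold of the PIDDosome on which Casp2 is activated, was between 20.8 and 31.8 CPM in controls and 37.3, 50.8, 25.0 and 93.3 CPM in knockouts, with overlapping groups (log2 fold change 0.88 ± 0.24, edgeR adjusted p = 0.121). Its highest value was in knockout 4, the epiblast in which Casp2 was also highest. Its partner Cradd had -0.45 ± 0.36. The apoptosome and inhibitor list, with cytochrome c (Cycs), Diablo, Htra2 and the inhibitors Xiap, Birc2, Birc3, Birc5 and Birc6, had 8 genes tested, none called and log2 fold changes between -0.43 and 0.26. The 8 caspase substrates, such as Parp1 and Lmnb1, lay between -0.21 and 0.40 with none called.

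**Figure D5:**
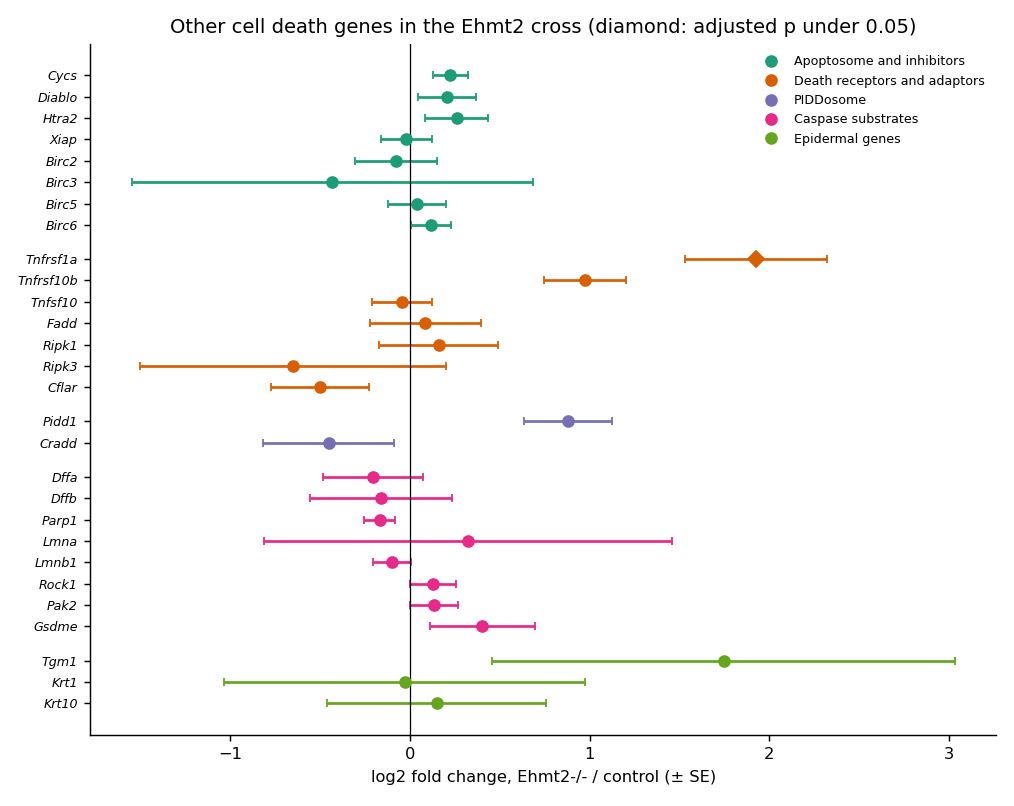
Log2 fold change in the Ehmt2 cross (x axis, with SE) of the 28 tested cell death and epidermal genes (y axis), coloured by list, with a diamond for an adjusted p under 0.05. Tnfrsf1a is the called gene, Tnfrsf10b and Pidd1 are the nearest to it with small errors, and the apoptosome and substrate genes lie between -0.43 and 0.40.

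No tested neighbour of Casp14 was called. Within 250 kb on either side the annotation holds 27 other genes, 7 of them olfactory receptors, and 5 of the 27 were listed. Syde1, Ilvbl and Pdxk, the 3 that passed the filter, lie on the side of the Casp14 end, at 120027, 127489 and 247016 bases. Their log2 fold changes were 0.51 ± 0.33, -0.40 ± 0.41 and 0.18 ± 0.21, none called. No gene closer than Syde1 was tested. The closest listed gene, Ccdc105 at 28632 bases, had no count in any Ehmt2-cross epiblast, and Slc1a6, at 62202 bases, was at most 0.351 CPM there.

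The 5 genes whose pattern over the 14 epiblasts was most like that of Casp14, by Pearson's r on log2(CPM + 0.5) among the genes tested in the Ehmt2 cross, were Magea2 (r = 0.955), Magea10 (0.945), Pdha2 (0.930), Cd3e (0.928) and Magea8 (0.921). Magea2, Magea10 and Magea8 are X-linked germline genes of one family whose copies may share reads, and Pdha2 is the testis form of a pyruvate dehydrogenase subunit. Pdha2 was 9.76, 19.0, 19.6 and 12.7 CPM in the Ehmt2-/- epiblasts and at most 0.0667 CPM in controls. These correlations come from the contrast of the same 4 knockouts with the other 10 epiblasts and describe it. Among the 6 genes, Apaf1 was the most like Casp14 (r = 0.876, rank 15 of 13748) and Casp8 the least (r = -0.715).

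In the Ezh2 cross, Casp14 had no count in any of the 6 epiblasts, so no ratio was formed and its knockout effects in the 2 crosses could not be tested against each other. A count of 3 would have been 0.194 to 0.229 CPM there, and the lowest Ehmt2-/- epiblast had 0.632. None of the 5 members tested was called, and none of the 14010 genes tested in that cross was called in either direction (0% by edgeR, against 82 higher and 25 lower by DESeq2), while 608 genes had an unadjusted p under 0.05 and a higher level and 512 a lower one.

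Casp8 was 7.84, 8.34 and 8.57 CPM in Ezh2 controls and 6.04, 11.9 and 8.62 CPM in Ezh2-/- epiblasts, with knockouts on both sides of the controls. The log2 fold change was 0.09 ± 0.34 (edgeR adjusted p = 0.971). The Ezh2 controls were all above the Ehmt2 controls, of which the highest was 5.22 CPM. The 2 sets of controls came from different matings, so cross and any other difference between them cannot be told apart. Apaf1 was 41.2, 35.5 and 37.9 CPM in Ezh2 controls and 39.1, 26.8 and 34.7 CPM in Ezh2-/- epiblasts, with a log2 fold change of -0.20 ± 0.20 (edgeR adjusted p = 0.852).

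Casp2 was 47.7, 40.8 and 39.8 CPM in Ezh2 controls and 41.8, 36.5 and 31.0 CPM in Ezh2-/- epiblasts, with a log2 fold change of -0.24 ± 0.18. Casp9 was 14, 11 and 11.2 CPM in the controls and 9.02, 11.2 and 9.27 CPM in the knockouts, with -0.31 ± 0.28. Casp6 was 6.79, 8.63 and 8.22 CPM in the controls and 9.10, 8.51 and 5.90 CPM in the knockouts, with -0.02 ± 0.33. The groups overlapped for all 5 genes with counts, where 7.42% of all genes tested had every knockout above and 7.12% every knockout below the controls. With 3 against 3 epiblasts the exact test cannot go below p = 0.10. Visceral endoderm markers stood apart in 2 of these epiblasts, at 972 CPM in control 2 and 2085 CPM in knockout 1, against at most 80.5 CPM in the Ehmt2 cross. Their part in these values was not tested.

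The knockout effects of the 2 crosses were compared in a joint fit of all 14 epiblasts. The log2 effect in Ehmt2-/- minus that in Ezh2-/- was 0.86 ± 0.28 for Apaf1 (edgeR unadjusted p = 0.00762, adjusted p = 0.347) and -1.87 ± 0.77 for Casp8 (unadjusted p = 0.0274, adjusted p = 0.446). Casp2, Casp6 and Casp9 differed by 0.13 ± 0.29, 0.13 ± 0.53 and 0.42 ± 0.37. None of the 5 passed the threshold, which 0.132% of the 15198 genes with counts in both crosses did.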

How the data were processed

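RNA of single E6.25 epiblasts, 750 pg per library, was amplified (Ovation RNA-seq System V2) and sequenced from 1 end. The authors trimmed reads to 40 nt, aligned them with TopHat2 to GRCm38 and counted them with HTSeq-count per Ensembl release 74 transcript. The deposited values are raw counts per transcript, not normalised. They list counts of 1 or more, and a missing transcript was taken as 0. A row of unaligned reads, 12.6% and 13.3% of the replicate 4 files of the Ehmt2 cross, was left out. Of 72515 transcripts, 70021 (96.6%) matched GENCODE vM21 (GRCm38), which gave symbols and positions.

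Here, 1 transcript per gene was tested with edgeR 4.0.16 (R 4.3.3; filterByExpr, TMM, quasi-likelihood test, Benjamini-Hochberg adjustment over all genes tested), with a term for replicate 4 in the Ehmt2 cross and a joint fit for the difference between crosses. The SE is the log2 fold change over the square root of F. CPM and ratios were compared by two-sided exact permutation tests in scipy 1.17.1. These shuffled all epiblasts of a cross freely, without the term for replicate 4. Correlations and ratios used a pseudocount of 0.5 CPM. DESeq2 1.42.0, other scalings, filters, covariates and left-out epiblasts were alternatives. Code was tested on simulated data. Named genes were the 6 members, called genes of the pathway lists and those describing a role, Casp14 neighbours, the 5 genes most like Casp14 and the targeted genes. A list of further caspases is not reported here. The genes and lists were chosen with earlier results of these data known. Promoters are RefSeq's (GRCm38.p6), with an entry for all 6 genes.

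Over 18 pairs of replicates, the chi-square of their counts divided by its degrees of freedom was at least 17.6, so none was counted as a repeat of another. Pairs with replicate 4 of the Ehmt2 cross had values of 160 to 211, and the other pairs of that cross 17.6 to 33.3. A count of 3 corresponds to between 0.106 and 0.240 CPM of unscaled depth and covers counting error only.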

Additional observations from a re-analysis of the deposited data

Results flagged for a closer look

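Casp14 in control 3 of the Ehmt2 cross was at 0.20 CPM (3 counts), while the other 3 controls of its group were at 0. With the others tied at 0, any count above 0 would have taken up the whole range of the group and passed Dixon's criterion, so this does not show that 3 counts lie far from 0. It was the one value so marked over the 18 groups examined (the 6 genes, Tnfrsf1a, Tnfrsf10b and Pidd1 in both Ehmt2-cross genotypes), and chance marks about 1 in 20 groups.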

How the results depend on the processing

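Of the alternatives for the 6 genes, Casp14 kept its direction in each one that tested it. With 155 counts in the knockouts and 3 in the controls a reversal was hardly possible, so the kept direction says little. Its call was lost with all transcripts tested (log2 fold change 5.57, adjusted p = 0.0527), with the replicate block (5.89, 0.077), with the extraembryonic ectoderm covariate (8.67, 0.0787) and without the term for replicate 4 (5.49, 0.128), all from edgeR. Leaving out 1 epiblast gave 5.14 to 8.33 (adjusted p 0.0396 to 0.14). It held with RLE size factors, DESeq2 and no filter, and with replicates 1 to 3 alone and no filter, chosen after seeing the data (5.14, adjusted p = 0.021). Apaf1 was called by DESeq2 alone (0.69, adjusted p = 0.0213). The cause was not tested. Genes called higher and lower in the Ehmt2 cross, 132 and 53, became 376 and 259 with DESeq2, 282 and 124 with no filter, 253 and 81 with all transcripts, 28 and 0 without the term for replicate 4, and 54 to 212 and 6 to 67 with 1 epiblast left out. Higher calls were 80 with the covariate and 218 with replicates 1 to 3 alone, and without the filter there 367 higher and 162 lower. In the Ezh2 cross, 0 and 0 became 82 and 25 with DESeq2, and lower calls 1 with no filter and 6 with all transcripts, and 0 to 7 and 0 to 1 with 1 epiblast left out. Calls on the difference, 11 and 9, became 60 and 67 with DESeq2 and 19 higher with all transcripts. Whether same-numbered epiblasts shared a litter is not given. Their deviations correlated between 0.051 and 0.396 in the Ehmt2 cross, with 3 of 4 pairs over 0.1, and between -0.168 and 0.217 in the Ezh2 cross, with 1 of 3, and not every epiblast was closest to its own number (5 of 8 and 2 of 6 were, a hint from the data and not the design), so the number was used only as an alternative block. The replicate block gave 76 higher and 6 lower calls in the Ehmt2 cross and 1 lower call in the Ezh2 cross.

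The ratios of Casp14 fell short of 0.05 by construction with 1 epiblast left out (smallest exact p 0.0571), at 1.98 to 2.59 for Casp2, 1.70 to 2.81 for Casp6, 3.25 to 3.85 for Casp8, 1.82 to 2.44 for Casp9 and 1.31 to 1.79 for Apaf1. The ratio to Casp6 was 3.89 with a pseudocount of 0.1 (exact p = 0.0286) and 1.51 with 1 (exact p = 0.114). The other 4 ratios kept an exact p of 0.0286 with both. Uncalled values near 0 changed sign. With the covariate Casp2 was 0.45, Casp6 -0.20 and Casp9 -0.17, and with replicates 1 to 3 alone Casp6 was -0.024, and -0.030 without the filter. In the Ezh2 cross Casp6 was 0.0016 with all transcripts and its CPM difference 0.24 with unscaled libraries. With 1 epiblast left out, Casp6 ranged from -0.22 to 0.34 and Casp9 from -0.033 to 0.25 in the Ehmt2 cross, and Casp6 from -0.14 to 0.15 and Casp8 from -0.18 to 0.30 in the Ezh2 cross.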
